A study of Physcomitrium patens with 4 samples.

Results

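In wild-type protonema of the moss Physcomitrium patens, 914 genes had at least 2-fold more reads after 1 hour of red light than in the dark. Of these, 191 combined a red light fold under 1.5 in the pubs hy2 mutant with a level at least 2 times higher in the dark mutant than in the dark wild type. These 191 genes, 0.592% of the 32273 genes counted, are described here. They were chosen from the reads themselves. The level of a gene in a library was its reads plus 0.5, divided by the sum of reads over genes. A gene needed at least 50 reads in the wild-type red light library and under 10% multi-mapping reads (reads that map to several places) in every library, which 16228 genes met. Because the choice used the reads of all 4 libraries, the levels and folds given for these genes describe them and support no test.

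Each group was 1 library, so no replicate error exists and every difference is one between libraries. Wild type (ecotype Gransden2004) and the pubs hy2 double mutant, labelled as phytochrome-deficient and of the same ecotype, were each sampled dark and illuminated. All cultures were 10-day-old protonema, with chloronema as the labelled tissue, and had 3 days of darkness. The illuminated ones then had 1 hour of red light from an LED of 660 nm at 25 °C, with a photon flux of 5 μmol per m2 and s. The dark groups were sampled at time 0, so red light and the hour that passed cannot be told apart. The labels do not say whether the mutant is 1 line, nor how many cultures went into a library.

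Phytochromes are photoreceptors that switch between a red-absorbing and a far-red-absorbing form, and their light sensing depends on a bound linear tetrapyrrole, a bilin. HY2 and PUBS are bilin synthases, enzymes that reduce biliverdin to such pigments. Chloronema are the chloroplast-rich filament cells that a moss spore first forms. In seed plants the far-red-absorbing form formed in red light enters the nucleus and changes transcription through bound transcription factors. The genes carry identifiers made of a scaffold number and a running number. None of the 191 identifiers was found in the RefSeq gene table used here, so no role is given for any of them, chloronema markers and the 2 mutated genes could not be looked up, and groups below are formed by level and response.

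Reads summed over genes ranged from 15098951 in the dark mutant to 24560047 in the wild type after red light, with 17560593 in the dark wild type and 22975725 in the mutant after red light. Across the 16228 genes that met the read minimum and the multi-mapping limit, 5.63% had at least 2-fold more reads in red light in wild type and 89.4% had a red light fold under 1.5 in the mutant. At least 2-fold higher in the dark mutant were 9.17%. Of the 451 genes with the wild-type fold of at least 2 and the mutant fold under 1.5, 191 (42.4%) also had the higher dark level. Of the 463 genes with the same wild-type fold and a mutant fold of 1.5 or more, 45 (9.72%) had it. The dark wild-type library is the divisor of both the wild-type red light fold and the dark fold, and the dark mutant library enters both the mutant red light fold and the dark fold. Low reads in the first or high reads in the second by error therefore push a gene toward this class.

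The 191 genes were low in the dark wild type and about as high in the dark mutant as in the illuminated mutant. Their median RPKM (reads scaled by gene length and library total, as deposited by the authors) was 3.53 in the dark wild type, 11.7 in the wild type after red light, 23.0 in the dark mutant and 24.3 in the mutant after red light. The medians over all 16228 genes were 12.9, 12.6, 11.6 and 11.9. The lowest library was the dark wild type for 189 of the 191 genes. The rule placed it below the illuminated wild type and the dark mutant, so only the illuminated mutant could be lower. The highest library was the mutant after red light for 90 genes, the dark mutant for 66 and the wild type after red light for 35. These counts of lowest and highest libraries were not made over the 16228 genes.

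**Figure D1:**
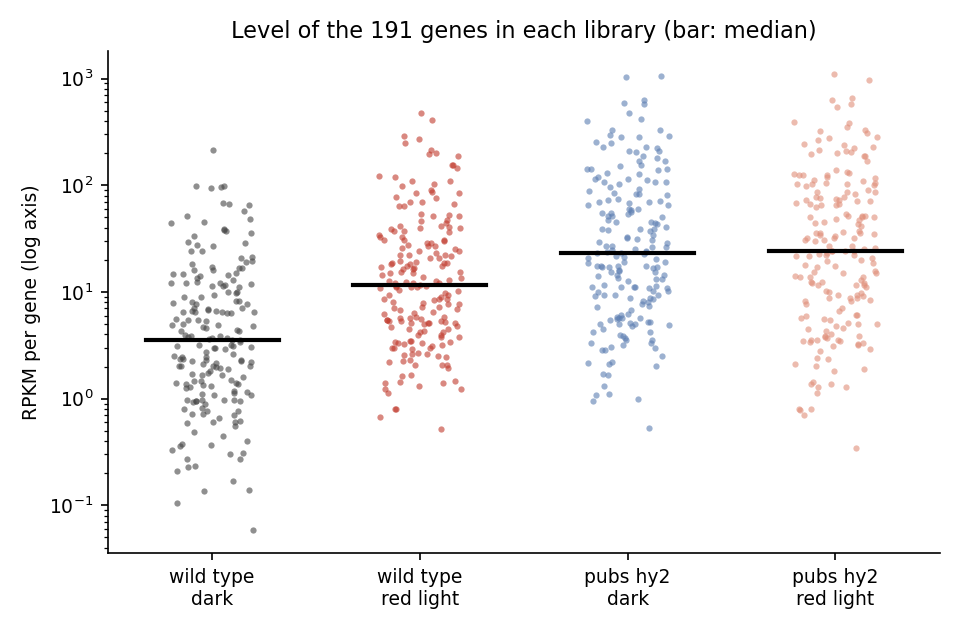
RPKM of the 191 genes in each of the 4 libraries on a log axis, 1 point per gene with a bar at the median. The median runs from 3.53 in the dark wild type to 24.3 in the illuminated mutant, and 1 gene listed at 0 in the dark wild type is not drawn there.

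Summed over the 191 genes, reads made up 0.407% of the dark wild-type library, 1.29% of the wild-type red light library, 2.72% of the dark mutant library and 2.80% of the mutant red light library. The sum was 3.16-fold higher after red light in wild type and 6.67-fold higher in the dark mutant than in the dark wild type. The 5 most abundant members held 22.2% of the sum in the dark mutant, where Pp1s298_26V6 had the largest single share (5.85%), so no single gene set the total.

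The median wild-type red light fold was 2.93, a log2 fold of 1.55, against -0.04 over all 16228 genes. It was under 3 for 104 genes, at least 4 for 49 and at least 8 for 14. The median dark fold, mutant over wild type, was 4.45 (log2 2.15), against a log2 median of -0.21 over all 16228 genes. The median red light fold in the mutant was 1.04 (log2 0.06, against 0.02 over all). These medians restate the choice of the genes. The counting intervals given below are exact 95% intervals (Clopper-Pearson on the share of a gene's reads in 2 libraries), and they cover counting error only. The interval of the wild-type red light fold lay above 1 for 191 of the 191 genes and that of the dark fold for 189. The 2 exceptions, Pp1s282_41V6 and Pp1s68_5V6, were picked out after their values were seen and had 8 and 10 reads in the dark wild type. The rule required both folds to be at least 2, so these interval counts largely restate the choice as well. They were not made over the 16228 genes.

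The rule set no direct limit on how far the dark mutant stood from the illuminated wild type. The ratio of these levels equals the dark fold divided by the wild-type red light fold, and the rule used both. The dark wild-type library cancels out of it, and the illuminated mutant does not enter it. In 101 of the 191 genes the dark mutant level was over 1.5 times the wild-type red light level, in 74 it was within 1.5 times and in 16 it was under 1/1.5 of it. Among all 16228 genes the shares were 18.6%, 52.4% and 29.0%, against 52.9%, 38.7% and 8.38% of the 191. The median ratio over the 191 was 1.61, with log2 quartiles of -0.06 and 1.64 and extremes of 0.209 and 86.5. These shares follow in part from the rule, because a gene must have a dark fold of at least 2 to be listed. By its counting interval the dark mutant was above the illuminated wild type in 123 genes and below it in 29, and the interval included 1 in 39. These interval counts also follow in part from the rule and were not made over the 16228 genes.

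**Figure D2:**
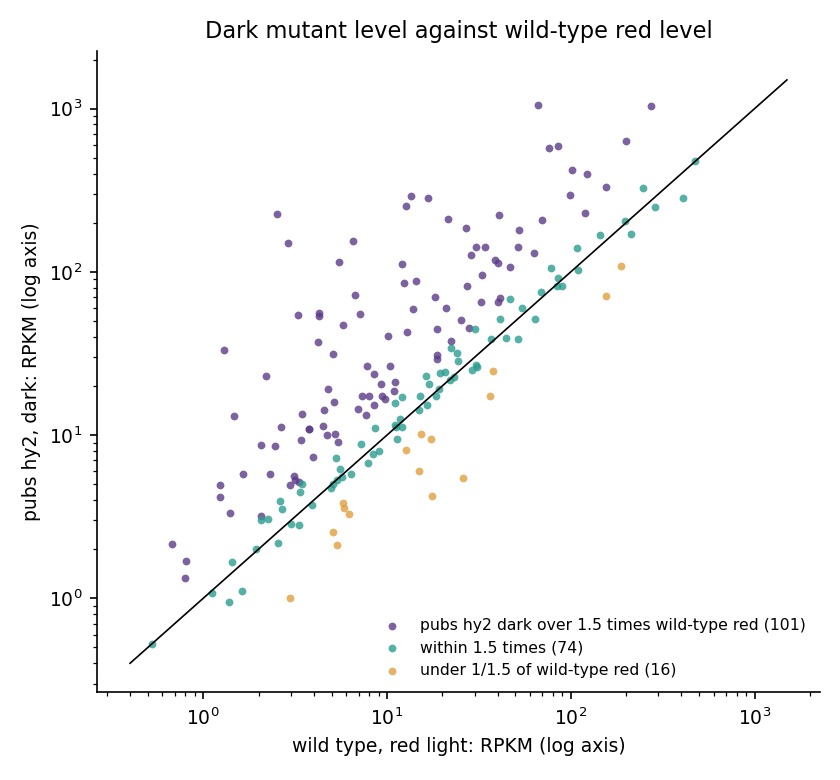
RPKM in the dark mutant against RPKM in the wild type after red light, both on log axes, 1 point per gene, with the line of equal RPKM. Colours mark the 101 genes over 1.5 times, the 74 within 1.5 times and the 16 under 1/1.5, by the ratio of reads over library sums.

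The 74 genes with a dark mutant level near the wild-type red light level had moderate folds, with a median of 2.64 for wild-type red light and 2.65 for the dark difference. Such like medians follow from the cut, since the ratio is the dark fold divided by the wild-type red light fold. In 55 of the 74 genes the mutant level after red light was also within 1.5 times that of the illuminated wild type. Pp1s157_44V6 was the member with the highest RPKM in the wild-type red light library. Its RPKM was 212 in the dark wild type, 472 in the wild type after red light, 479.8 in the dark mutant and 541 in the illuminated mutant. One library stood low and the other 3 were close together. Its wild-type red light fold was 2.27 (interval 2.20 to 2.34), its dark fold 2.25 (2.18 to 2.33) and its mutant red light fold 1.13 (1.11 to 1.16).

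Among members with at least 200 reads in every library, 4 others had a dark mutant level closest to that of the illuminated wild type. Pp1s1_164V6 had 559 reads in the dark wild type, 2440 in the illuminated wild type, 1528 in the dark mutant and 3065 in the illuminated mutant. Pp1s97_277V6 had 1508, 4365, 2739 and 4842 reads in the same order. The sums of reads differ between libraries, so the smaller numbers of the dark mutant stand for levels near those of the illuminated wild type. Pp1s386_29V6 had 251, 987, 593 and 1143 reads, and Pp1s38_346V6 had 257, 896, 535 and 1150. In each of the 4 genes the mutant level was somewhat higher again after red light, by 1.16 to 1.41 times, with intervals above 1.

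The other abundant members differed in whether the mutant passed the wild-type level. Pp1s174_37V6 had an RPKM of 98.0 in the dark wild type, 407 in the illuminated wild type, 283 in the dark mutant and 348 in the illuminated mutant, so the wild type after red light was highest. Pp1s342_16V6 had 68.0, 212, 170.0 and 210.0, with the illuminated genotypes nearly level. Pp1s88_142V6 had 98.7, 286, 248 and 214, and its mutant level was lower after red light (fold 0.868, interval 0.839 to 0.898). All 3 had dark mutant levels below those of the wild type after red light. Pp1s291_62V6 had 27.8, 248, 328 and 321, a wild-type red light fold of 9.10 (8.62 to 9.61) and a dark fold of 11.7 (11.1 to 12.4). Its mutant levels were alike in dark and red light, with a fold of 0.984 (0.963 to 1.00). Pp1s141_102V6 had 93.4, 273, 1038 and 1112, and there the dark mutant stood well above the illuminated wild type.

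In the 101 genes whose dark mutant level was above the wild-type red light level, the dark fold had a median of 9.15 and reached 943, while the wild-type red light fold had a median of 2.95. The cut itself requires larger dark folds here, because the wild-type red light fold is at least 2. The lowest dark fold in this group was 3.21. The mutant stayed higher after red light: 90 of the 101 were over 1.5 times the illuminated wild type and 75 were at least 2 times. Over all 191 genes 75 (39.3%) were at least 2-fold higher in the mutant when both genotypes were illuminated, and 7 (3.66%) at most 0.5-fold, against 10.2% and 11.8% of the 16228. This ratio follows from the 3 folds the rule used.

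The rule required a dark fold of at least 2, so a larger share of high dark folds is partly built in. Dark folds of at least 8 were found in 62 of the 191 genes (32.5%), against 1.17% of the 16228. Folds of at least 32 were found in 24 (12.6%), against 0.228%. Of the 1488 genes among the 16228 with a dark fold of at least 2, 190 had at least 8 and 37 at least 32. Along the dark fold the other measures differed. The 85 genes with a dark fold of 2 to 4 had a median wild-type red light fold of 2.57 and, in red light, a median mutant level 1.10 times that of wild type. The 44 genes with a dark fold of 4 to 8 had 2.75 and 1.72, the 38 genes with 8 to 32 had 3.31 and 3.87, and the 24 genes with 32 or more had 6.28 and 10.6. The median mutant red light fold lay between 0.926 and 1.15 in all 4 bands. The band with the largest dark folds had the lowest dark wild-type level, a median RPKM of 0.781, and the highest dark mutant level, a median of 79.9. The dark wild-type reads enter 2 of these folds, and 25 reads was their median in this band. The dark fold divides the dark mutant level by the dark wild-type level, so the levels in this band are partly built in. The ratio of the illuminated genotypes also contains the dark fold, so its rise along the bands is partly built in as well.

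Pp1s129_85V6 had the highest dark fold. It had 3 reads in the dark wild type, 91 in the illuminated wild type, 2836 in the dark mutant and 3449 in the illuminated mutant. Both wild-type libraries were low and both mutant libraries high, and the dark fold was 943 (interval 376 to 5335). Pp1s20_253V6 had 6, 72, 3857 and 5827 reads, a dark fold of 690.2 (343 to 2039). For both genes the wild-type red light level stayed far below the mutant level, which in red light was 40.3 times (32.9 to 50.5) and 85.9 times (68.6 to 111) the wild-type level.

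The third in order was the short gene Pp1s1_366V6, with 1 read in the dark wild type and a dark fold of 448, which is given with its neighbours below. Pp1s107_77V6 had 106 reads in the dark wild type, 1036 in the illuminated wild type, 10501 in the dark mutant and 15573 in the illuminated mutant. Its dark fold was 115 (95.2 to 141) and its wild-type red light fold 6.96 (5.72 to 8.62). Pp1s11_289V6 had 156, 2759, 11548 and 18839 reads, a dark fold of 85.8 (73.5 to 101) and a wild-type red light fold of 12.6 (10.8 to 15.0). In both genes the level of the illuminated wild type lay between that of the dark wild type and those of the mutant. The mutant level in red light was 16.1 and 7.30 times that of the illuminated wild type. Pp1s49_96V6 had 14, 70, 1067 and 1583 reads and a dark fold of 85.6 (52.6 to 163).

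The largest wild-type red light folds belonged mostly to genes with very few dark wild-type reads, and their intervals are wide. Pp1s52_29V6, 0.195 kb long, had 0 reads in the dark wild type, 96 in the illuminated wild type, 14 in the dark mutant and 25 in the illuminated mutant. Set against a floor of 3 counts in the dark wild-type library, it was 22.9-fold higher after red light and 5.43-fold higher in the dark mutant. The lower ends of the counting intervals of these folds were 18.3 and 3.86. Its mutant levels stayed below the wild-type red light level. Pp1s1_366V6, 0.162 kb long, had 1, 98, 577 and 698 reads, with a wild-type fold of 47.0 (12.3 to 2796). Pp1s71_227V6 had 2, 141, 176 and 386 reads, and Pp1s351_7V6 had 2, 60, 145 and 224. Their wild-type folds were 40.5 (13.7 to 420.3) and 17.3 (5.69 to 181). Pp1s32_270V6 had 14, 446, 254 and 497 reads, a fold of 22.02 (13.4 to 42.0), and in this gene the dark mutant came close to the illuminated wild type, with a dark fold of 20.4 (12.3 to 39.1).

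**Figure D3:**
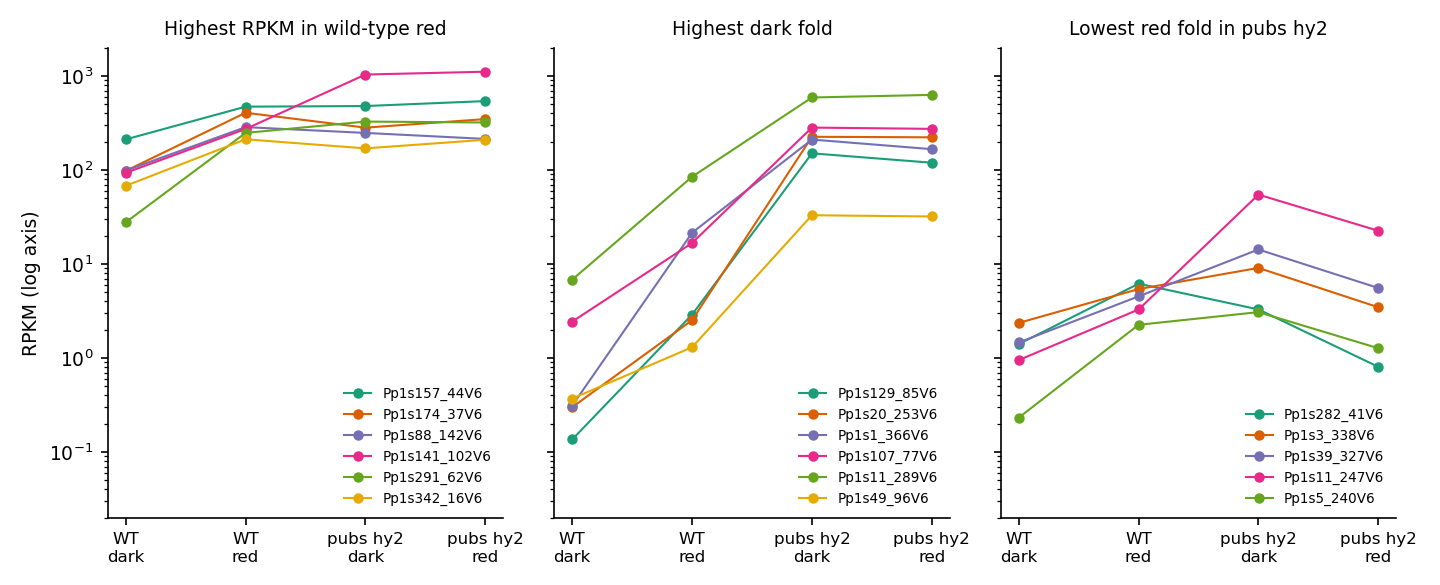
RPKM in the 4 libraries on a log axis for the 6 members with the highest RPKM in the wild-type red light library, the 6 with the highest dark fold and the 5 with the lowest red light fold in the mutant, 1 line per gene (WT: wild type). In the middle panel each dark mutant value lies above the wild-type red light value, as for Pp1s107_77V6 with 283 against 16.8.

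The 16 genes whose dark mutant level was under 1/1.5 of the wild-type red light level had larger wild-type red light folds, with a median of 5.54, and a median dark fold of 2.47. The cut itself requires larger wild-type red light folds here, because the dark fold is at least 2. The lowest wild-type red light fold in this group was 3.25. In 11 of the 16 genes the illuminated mutant was also under 1/1.5 of the illuminated wild type. Among the 7 members at most 0.5-fold in the mutant in red light was Pp1s213_86V6, named after its values were seen, with 6 reads in the dark wild type, 151 in the illuminated wild type, 19 in the dark mutant and 19 in the illuminated mutant. These 7 genes had at most 39 reads in the dark wild type.

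Within the mutant, the red light response of the 191 genes was spread around 1. The counting interval of the mutant fold lay above 1 for 73 genes (38.2%), included 1 for 67 and lay below 1 for 51 (26.7%). Over the 16228 genes the shares above and below were 31.0% and 26.8%. The share below 1 was thus close to that of all genes, and the share above 1 was somewhat larger. Folds from 1.2 to under 1.5 were seen in 57 genes (29.8%), against 15.4% of the 16228, where genes at 1.5 or more also occur, which the rule leaves out. At most 1/1.5 were 20 genes (10.5%), against 6.33% of the 16228. Of the 260 genes with a wild-type fold of at least 2, a mutant fold under 1.5 and a dark fold under 2, the interval lay above 1 in 43.8% and below 1 in 10.0%, and the fold was from 1.2 to under 1.5 in 47.3%. A high dark mutant level lowers the mutant fold and raises the dark fold alike, so these shares are not independent of the rule.

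**Figure D4:**
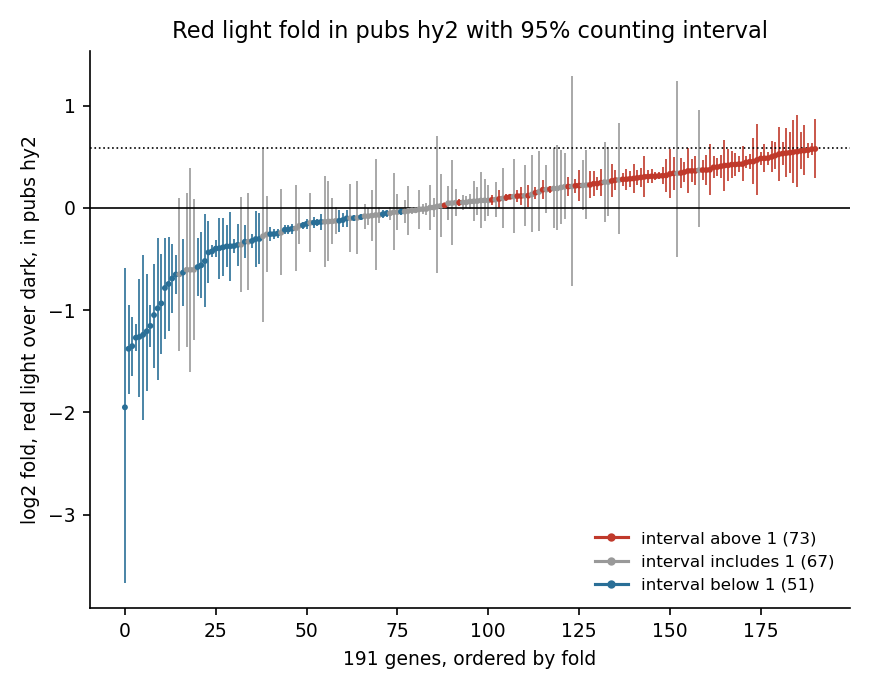
Log2 fold of red light over dark in the mutant for the 191 genes in rising order, with the 95% counting interval as a vertical line; the dotted line marks the limit of 1.5. The interval is above 1 for 73 genes, includes 1 for 67 and is below 1 for 51.

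The 5 genes with the lowest mutant red light folds had at most 38 reads in the dark wild type. Pp1s11_247V6 had 24 reads in the dark wild type, 118 in the illuminated wild type, 1182 in the dark mutant and 746 in the illuminated mutant. Wild type was higher after red light, by 3.46-fold (2.25 to 5.70), and the mutant was lower, with a fold of 0.415 (0.378 to 0.455). Pp1s39_327V6 had 32, 141, 267 and 159 reads and Pp1s3_338V6 had 38, 124, 125 and 73, with mutant folds of 0.392 (0.320 to 0.478) and 0.385 (0.284 to 0.516). In these 2 genes the illuminated genotypes ended nearer to each other than the dark ones, at 1.205 and 0.631 times the wild-type level. Pp1s5_240V6 had 6, 83, 68 and 43 reads. Pp1s282_41V6 had 8, 50, 16 and 6 reads and a mutant fold of 0.259 (0.0790 to 0.663), the lowest of the 191. Pp1s282_41V6 and Pp1s105_171V6 were the 2 genes whose lowest library was the illuminated mutant, not the dark wild type, and the second was named for that after its values were seen.

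At the limits of the rule the values changed little from inside to outside. Pp1s256_10V6, with a wild-type red light fold of 2.00, was just inside and Pp1s44_78V6, with 1.99, just outside. For the mutant fold these were Pp1s73_46V6 with 1.49 and Pp1s198_6V6 with 1.51, and for the dark fold Pp1s84_178V6 with 2.01 and Pp1s30_285V6 with 1.99. The intervals of these folds include the limit in each of the 6 genes. The lower bound was at least 2 for 125 of the 191 genes in the wild-type red light fold and for 155 in the dark fold. The upper bound of the mutant fold was under 1.5 for 162. Because the rule cut on these same folds, such counts follow in part from it. They were not made over all genes that met the read minimum and the multi-mapping limit, so they do not show how firm membership is.

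Gene length was not used by the rule. The members had a median length of 1.53 kb (quartiles 1.05 and 2.17 kb), against 1.83 kb (1.25 and 2.51 kb) for the 16228 genes. The 260 genes without the higher dark level had 1.59 kb. The 463 genes red-induced in wild type with a mutant fold of 1.5 or more had 1.58 kb. The shorter length was thus found in all 3 sets of red-induced genes. Below 0.3 kb were 11 members (5.76%), against 1.82% of the 16228 and 7.69% of the 260. Those 11 had at most 82 reads in the dark wild type. Multi-mapping reads were listed at 0 in every library for 181 of the 191 genes. The rule limited multi-mapping, and in the 16228 genes the upper quartile of a gene's highest multi-mapping percentage was 0 as well.

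The members lay on 146 scaffolds by their identifiers, and 17 of them formed 8 groups with running numbers up to 5 apart. This share, 8.90%, was near that of the 260 genes (7.31%) and the 463 genes (9.50%). Running numbers were taken as a sign of neighbourhood without coordinates, and without strand information reads of overlapping genes cannot be told apart. In 4 of the 8 groups the counting intervals of the members' dark folds overlapped, and in the 4 on scaffolds 1, 33, 77 and 326 they did not. Overlap depends on depth, since few reads give wide intervals. It was not counted for members that are not neighbours, so it does not show that neighbours are more alike. Pp1s4_307V6 and Pp1s4_308V6 had dark folds of 57.5 (30.7 to 142) and 83.4 (48.4 to 175). Pp1s169_139V6 and Pp1s169_140V6 had 31.7 (19.9 to 57.6) and 34.3 (28.1 to 42.8), and Pp1s221_12V6 and Pp1s221_13V6 had 17.9 (11.7 to 30.4) and 13.8 (9.47 to 21.6). Genes numbered beside members differed in this respect. Pp1s169_138V6 and Pp1s221_11V6, just before the last 2 pairs, had dark folds of 0.470 and 0.603. Pp1s33_301V6, beside a member on scaffold 33, had one of 2.29 (1.99 to 2.65), and Pp1s77_279V6, between the members on scaffold 77, had 2.07 (1.41 to 3.11).

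Other groups were interrupted. Pp1s60_266V6 had 162 reads in the dark wild type, 786 in the illuminated wild type, 4388 in the dark mutant and 4973 in the illuminated mutant, and Pp1s60_269V6 had 33, 264, 1223 and 2260. Their dark folds were 31.4 (26.9 to 37.1) and 42.5 (30.5 to 62.9). Between them by number, Pp1s60_268V6 had 691, 1209, 711 and 1213 reads and a dark fold of 1.197, so it did not share the difference. The short gene Pp1s60_267V6 (0.204 kb) had 0 reads in both wild-type libraries and 246 and 204 in the mutant. Against the floor it was 95.4-fold higher in the dark, and the lower end of its counting interval was 77.0. This gene was not listed because it lacked reads in wild type. Pp1s326_44V6 and Pp1s326_48V6 had dark folds of 55.9 (45.0 to 71.3) and 11.2 (10.2 to 12.3), and wild-type red light folds of 2.75 and 2.59. Pp1s33_302V6 and Pp1s33_304V6 had dark folds of 2.07 and 5.67, and Pp1s77_278V6 and Pp1s77_280V6 had 3.21 and 2.37.

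Scaffold 1 held the one group of 3. Pp1s1_361V6 had 122, 1001, 3309 and 7492 reads in the 4 libraries (dark and illuminated wild type, dark and illuminated mutant), Pp1s1_365V6 had 505, 4678, 3605 and 7467, and Pp1s1_366V6 had 1, 98, 577 and 698. The wild-type red light folds of the first 2 were alike, 5.85 (4.86 to 7.14) and 6.62 (6.04 to 7.27). Their dark folds were not, at 31.4 (26.3 to 38.1) and 8.30 (7.56 to 9.13), and that of Pp1s1_366V6 was 448 (120.0 to 26551). Pp1s1_360V6, the gene numbered before them, had a dark fold of 0.770.

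**Figure D5:**
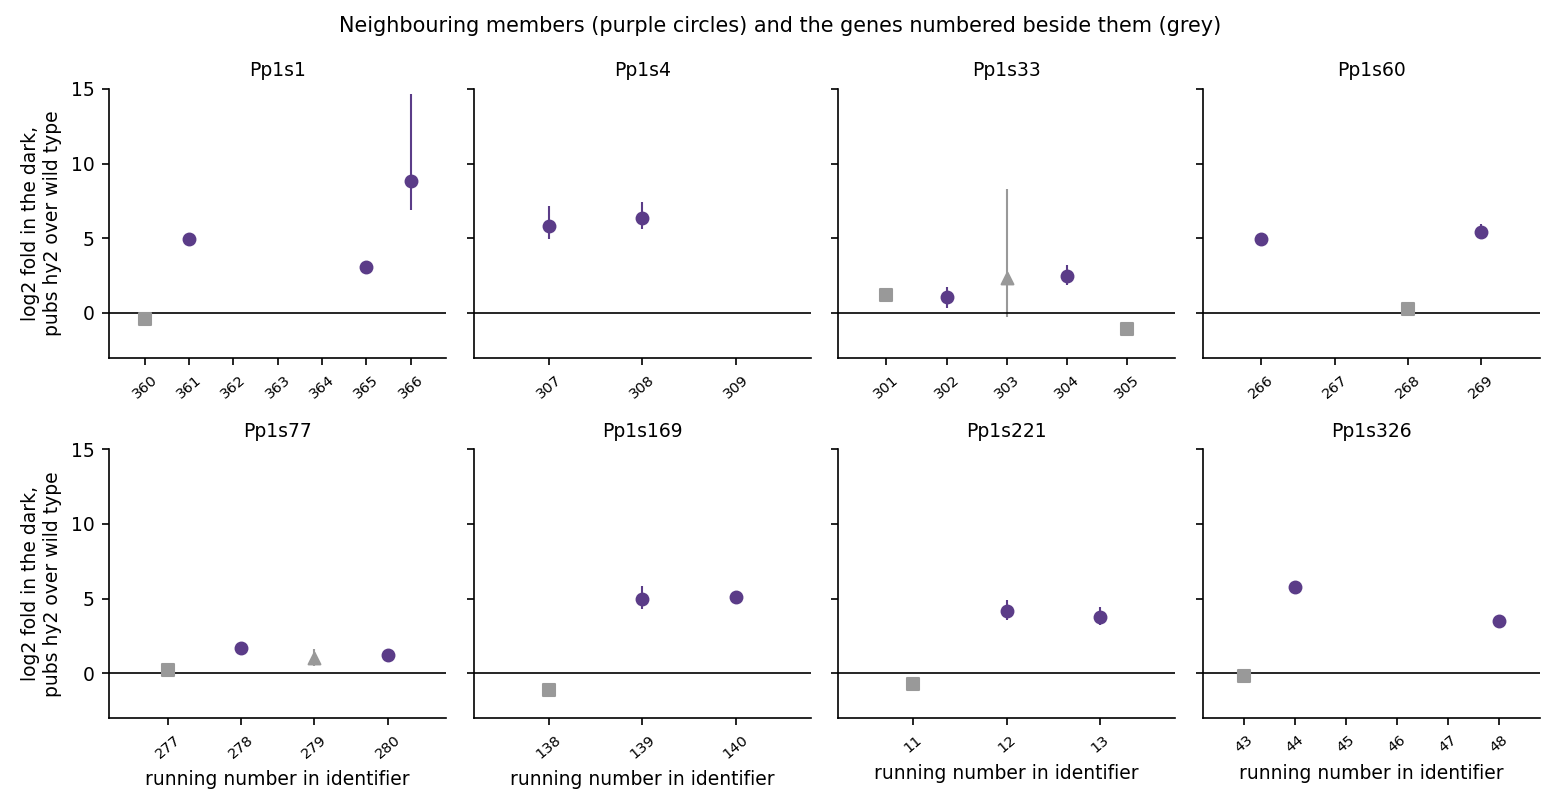
Log2 dark fold, mutant over wild type, with its 95% counting interval, for the 8 groups of members with running numbers up to 5 apart (purple circles) and for genes numbered between or beside them (grey squares met the read and multi-mapping limits, grey triangles did not). Genes with 0 dark wild-type reads are not drawn; on scaffold 60 the members at 31.4 and 42.5 are separated by Pp1s60_268V6 at 1.197.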

How the data were processed

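The authors deposited, per the file headers, an estimated count of reads, an RPKM value, a gene length in kilobases and the fraction of multi-mapping reads for each gene and library. Reads are mostly whole numbers (95.4% to 95.6% exactly whole). RNA with poly-A tails was fragmented, copied by random priming and amplified by PCR, per the labels' protocols; no step that keeps strand is described and no molecular identifier is used. Aligner, genome build and annotation are not given in the sources used here.

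Folds were ratios of (reads + 0.5) over the sum of reads. Counts rounded to whole numbers gave the intervals. A floor of 3 counts per library stood in for 0 reads; it corresponds to 0.122 to 0.199 CPM (counts scaled to the sum of reads). No p-value was computed, with 1 library per group and members chosen from the same reads. The members and lists were chosen with earlier results of these data known. Named genes are the 6 members highest in wild-type red RPKM, in wild-type red fold and in dark fold, the 5 lowest in mutant fold, the 5 with dark mutant nearest wild-type red (at least 200 reads in every library), the genes at each limit, and neighbours. Lists of genes by function and promoter motifs were planned and could not be applied, since 0 of 32273 identifiers matched the RefSeq gene table. Alternatives changed the scaling (TMM of edgeR 4.0.16, size factors of DESeq2 1.42.0, in R 4.3.3), the added count, the depth, the source of values and each limit. The rule and the intervals were tested on simulated data. Other steps used Python 3.11.15 with scipy 1.17.1, pandas 2.3.3, numpy 2.4.6 and, for plots, matplotlib 3.10.9.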

Additional observations from a re-analysis of the deposited data

Results flagged for a closer look

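Of the 48 members named above, 12 were higher after red light in wild type and lower in the mutant, each with counting intervals clear of 1; the difference was not tested, since each group has 1 library. Of these, 5 were named because they had the lowest mutant folds. Over all 191 members the mutant interval lay below 1 in 26.7%, close to the 26.8% of the 16228 genes. The log2 of the mutant red light fold over the wild-type fold is negative for every member, because the rule limits both folds. It was -5.88 for Pp1s1_366V6, -4.55 for Pp1s129_85V6, -4.46 for Pp1s5_240V6 and -4.04 for Pp1s282_41V6. These genes had only 1, 3, 6 and 8 reads in the dark wild type, in this order. The values were -3.06 for Pp1s11_247V6, -2.99 for Pp1s39_327V6, -2.84 for Pp1s107_77V6, -2.59 for Pp1s3_338V6, -2.51 for Pp1s169_139V6, -2.46 for Pp1s105_171V6, -2.22 for Pp1s60_266V6 and -1.76 for Pp1s88_142V6. For Pp1s107_77V6 the mutant fold itself was close to 1 (0.975, interval 0.951 to 0.999). The mutant folds of these genes were below 1 under each of the 6 other scalings, added counts and depths tried.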

How the results depend on the processing

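The 5 median folds and the 3 level groups stayed within the 95% binomial interval of the median or within 1.5 times the count. This held under all 6 changes of scaling, added count, depth and source. The 191 genes were held fixed for this. The interval reflects the spread among these genes and does not measure replicate error. A change of library scaling alone moves a fold by the same factor in every gene. The median dark fold (log2) ranged from 2.09 (totals without the 100 most abundant genes) to 2.31 (DESeq2 size factors), while the median over all 16228 genes ranged from -0.28 to -0.06. The number of genes that met the rule was 215 with TMM, 233 with DESeq2 size factors, 180 without the 100 most abundant genes and 160 at the depth of the smallest library, where 153 of the 191 were kept. It was 185 with RPKM and 174 with an added count of 5. Under 6 of the 12 changes of the limits it stayed within 1.5 times, from 134 with a mutant red light fold under 1.2 to 261 with a dark fold of 1.5. Under the other 6 it was 853 with no minimum of reads, 121 with a minimum of 200, 118 with 50 reads also required in the dark wild type, 346 and 87 with a wild-type red light fold of 1.5 and 3, and 106 with a dark fold of 4. In the 118 genes with 50 dark wild-type reads the median dark fold was 3.74 and the median wild-type red light fold 2.69. No paired analysis was possible because each group has 1 library. Depth limits the folds most in the dark wild type, where 73 of the 191 genes had under 50 reads and 13 under 10.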
